A study of Mus musculus with 4 samples.

Results

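The genes described are 10 that mark T cells and carry the signal of their antigen receptor: Cd3d, Cd3e, Cd3g, Cd247, Cd4, Cd8a, Cd8b1, Lck, Zap70 and Tcf7. They were taken by symbol, and all 10 of 10 were found among 23282 rows of the lung expression data. Lung RNA was measured in 4 libraries, with or without treadmill exercise (E) and with or without tumor (T). The normal control is written E(-)T(-) and its exercised counterpart E(+)T(-), while E(-)T(+) is the cancer control, and mice with both tumor and exercise form E(+)T(+). All mice were male CDF1 mice labelled as postnatal day 28. The methods place that age at purchase, so it need not be the age at sampling. Tumor groups were injected in the tail vein with CT26, a line of mouse colorectal carcinoma cells, and exercise groups ran on a treadmill at high intensity on alternate days. Each group held 10 mice. The study took muscle from a representative animal of every group and describes the lungs as examined in a similar way. It does not state outright whether a lung library was 1 mouse or a pool, so each group counts as 1 library, and no difference below can be set against the spread between mice.

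The T cell antigen receptor binds a peptide held by an MHC molecule, but its receptor chains have almost no part inside the cell and cannot signal alone. The CD3 delta, epsilon and gamma chains and the zeta chain encoded by Cd247 travel with it and carry the tyrosines that start the signal. CD4 binds MHC class II and marks helper and regulatory T cells, CD8 binds MHC class I and marks cytotoxic T cells, and both bring the kinase Lck to the receptor. Lck phosphorylates the CD3 and zeta tails, and the kinase Zap70 docks there and passes the signal on. TCF-1, encoded by Tcf7, is a transcription factor of developing, naive and memory T cells. In the lung these cells patrol the tissue and its vessels and can attack metastases.

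The CD3 genes lie together on mouse chromosome 9, and their promoters are shown because the 3 genes are neighbours with different values below. On GRCm38 in the GENCODE M21 annotation, Cd3d spans chr9:44981786-44987339 on the plus strand, Cd3g chr9:44969572-44980431 on the minus strand and Cd3e chr9:44998740-45009627 on the minus strand. Cd3d and Cd3g start back to back with 1354 bases between them, and Cd3e lies 11400 bases beyond the far end of Cd3d. The sequences are the 250 bases before each RefSeq start (GRCm38.p6), written 5′ to 3′ on the strand of the gene. They cover chr9:44981536-44981785 for Cd3d, chr9:45009612-45009861 for Cd3e and chr9:44980432-44980681 for Cd3g. Capitals mark the letters CTTTGA, a core of TCF/LEF motifs, and AGGAAG, a core of Ets motifs, on either strand.
Cd3d: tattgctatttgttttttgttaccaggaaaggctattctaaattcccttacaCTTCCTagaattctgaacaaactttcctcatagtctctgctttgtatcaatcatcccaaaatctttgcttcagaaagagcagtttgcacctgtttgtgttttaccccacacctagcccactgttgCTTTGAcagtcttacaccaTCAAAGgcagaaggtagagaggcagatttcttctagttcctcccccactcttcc
Cd3e: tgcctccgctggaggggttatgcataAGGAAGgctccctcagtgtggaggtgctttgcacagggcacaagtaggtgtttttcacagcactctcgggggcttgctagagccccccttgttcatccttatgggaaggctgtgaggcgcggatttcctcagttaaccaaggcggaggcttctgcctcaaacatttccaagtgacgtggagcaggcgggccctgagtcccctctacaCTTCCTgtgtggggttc
Cd3g: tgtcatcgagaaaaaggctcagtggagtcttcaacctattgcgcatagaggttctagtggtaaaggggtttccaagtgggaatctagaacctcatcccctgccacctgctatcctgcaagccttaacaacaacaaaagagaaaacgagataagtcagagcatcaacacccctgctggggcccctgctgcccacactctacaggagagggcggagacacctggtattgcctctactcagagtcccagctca
The Cd3d window held CTTTGA at 73 to 68 and at 54 to 49 bases before the start, facing opposite ways, and AGGAAG at 198 to 193 bases. The Cd3e window held AGGAAG at 224 to 219 and at 17 to 12 bases, and the Cd3g window held none of these letters. TGTGGT, a core of Runx motifs, was also searched. Over all 32851 RefSeq promoter windows of this length, 13.8% held CTTTGA, 29.5% AGGAAG and 14% TGTGGT on either strand. For 8 of the 10 genes 12 promoter windows were matched. Of these genes 2 held CTTTGA, 5 AGGAAG and 2 TGTGGT in at least 1 window, whereas the shares above are per window. These are matches of letters only.

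The other genes lie on several chromosomes. Cd8a (chr6:71373427-71379173, plus strand) and Cd8b1 (chr6:71322788-71337494, plus strand) are 35932 bases apart, and Cd4 lies further along the same chromosome (chr6:124864692-124888221, minus strand). Cd247 spans chr1:165788681-165877277 and Zap70 chr1:36761798-36782818, both on the plus strand. Lck spans chr4:129548344-129573641 and Tcf7 chr11:52252371-52283014, both on the minus strand. Reads of a 3′ library collect at transcript ends, and the end of Cd247 lies within Pou2f1 on the opposite strand, the end of Tcf7 within Gm26551 on the same strand, and exons of Cd3e overlap the antisense gene Gm48719. Whether the counting used strand is not given in the sources used here, so reads of Cd247 and Pou2f1, or of Cd3e and Gm48719, may not have been told apart.

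Values are log2(normalized count + 1) as deposited, and the whole reads behind them were recovered. With the normal control first, then exercise alone, tumor alone and both, the libraries held 13017375, 12780423, 9354585 and 13367971 reads on genes. A floor of 3 reads, below which a level is not resolved, was 0.230, 0.235, 0.321 and 0.224 CPM (reads scaled to the library total) in that order. Intervals are exact (Clopper-Pearson) 95% intervals of read ratios and cover counting error only. Values of 4 libraries are always given in that same order. Hemoglobin genes took 14.3, 14.2, 1.43 and 31.4% of reads, which stands E(-)T(+) and E(+)T(+) apart from the other libraries in composition. Hbb-b1 and Hbb-bs gave similar reads in each library (680669 and 689693 in E(+)T(+)), as did Hbb-b2 and Hbb-bt (237669 and 246391 there). Whether reads were counted under both genes of a pair was not tested, so these shares and the library totals may be too high.

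In the cancer control these genes took a far smaller share of the lung's reads than in any other group. Together the 10 genes gave 913, 735, 102 and 513 reads, or 70.1, 57.5, 10.9 and 38.4 CPM. By normalized count every gene was at its lowest in E(-)T(+), whereas the highest library was E(-)T(-) for 5 genes, E(+)T(-) for 3 and E(+)T(+) for 2 (Cd3d and Zap70). By CPM, Tcf7 was lowest in E(+)T(+) instead (0.374 against 0.428). Cd3d and Zap70 were then highest in E(+)T(-), and Cd3g and Tcf7 in E(-)T(-). The summed normalized count was 6.91-fold lower in E(-)T(+) than in E(-)T(-), and 5.33-fold higher in E(+)T(+) than in E(-)T(+). On the log2 scale the former is -2.79, and it was -2.69 by library totals and -1.70 by pan-leukocyte reads. The latter is 2.42, and it was 1.82 by library totals and 0.24 by pan-leukocyte reads. In bulk tissue, fewer T cells and less RNA per T cell cannot be told apart. Other tissue genes moved in the tumor effect without exercise too, with medians of -2.67 for lung epithelium, -3.42 for hemoglobin and 4.96 for cell division. The part of this shift in tissue makeup was not tested.

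**Figure D1:**
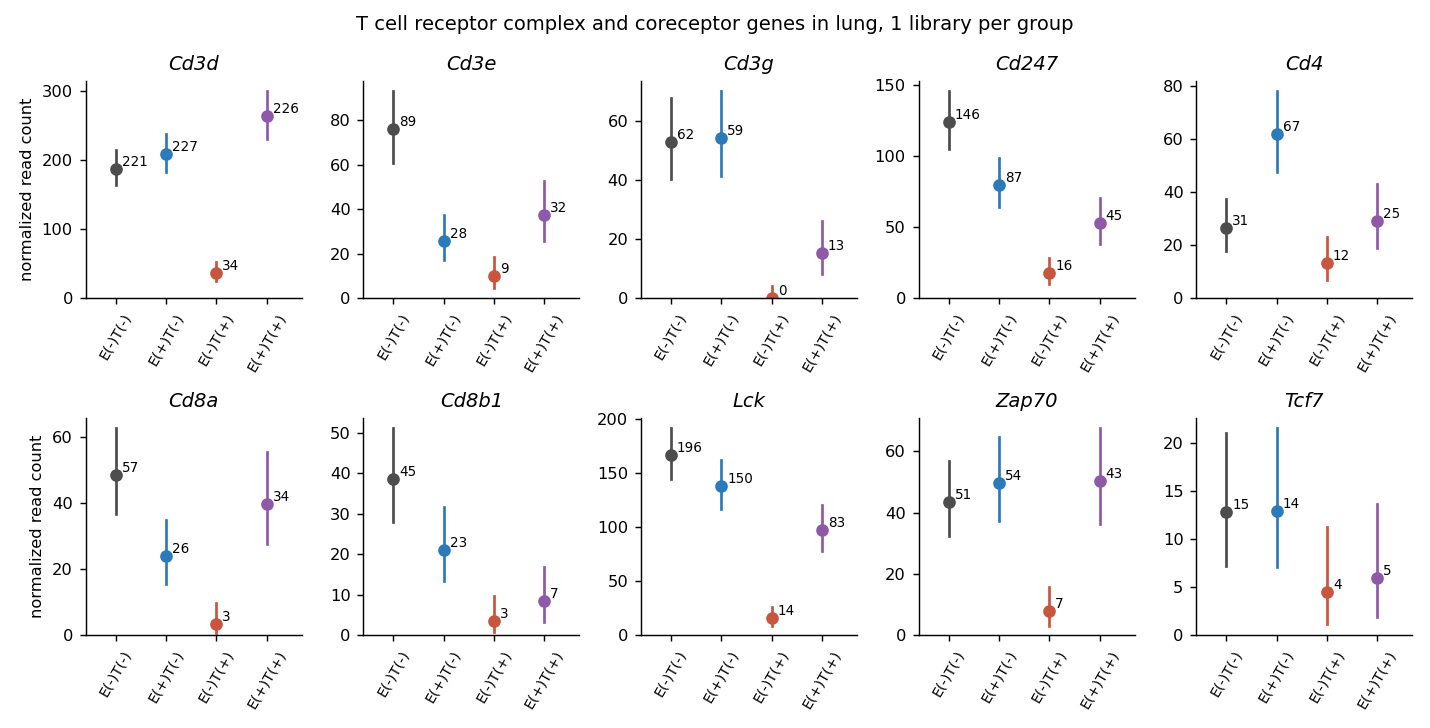
Level of each of the 10 genes in each library (y axis), based on the normalized read count, with 1 point per library and no replicates. Each gene is lowest in E(-)T(+), and Cd3g, with 0 reads there, is the lowest of all points.

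Among the CD3 chains, Cd3d was the most read of all members. It gave 221, 227, 34 and 226 reads, with log2 levels of 7.56, 7.71, 5.26 and 8.05. As deposited, the cancer control lay far below the other libraries: the difference was -2.30 for tumor without exercise (-2.90 to -1.81) and 2.79 for exercise with tumor (2.30 to 3.39). By pan-leukocyte reads Cd3d differed by -1.23 and 0.64 in these comparisons. Its level in E(+)T(+) differed from that in E(+)T(-) by 0.34 (0.07 to 0.61), a direction that library totals turned to -0.07 and pan-leukocyte scaling to -0.87.

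Cd3e, whose chain pairs with both the delta and the gamma chain, gave 89, 28, 9 and 32 reads and log2 levels of 6.26, 4.74, 3.45 and 5.26. Unlike Cd3d it was already lower with exercise alone, by a log2 difference of -1.53 (-2.22 to -0.93). It differed by -2.81 for tumor without exercise (-4.11 to -1.95). For exercise with tumor it differed by 1.81 (0.82 to 3.18), which turned to -0.24 by pan-leukocyte reads. In E(+)T(+) it was at 49.3% of its normalized count in E(-)T(-), against 141% for Cd3d, and by CPM these shares were 35.0 and 99.6%.

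Cd3g gave 62, 59, 0 and 13 reads, and log2 levels of 5.75, 5.79, 0.08 and 4.03. With 0 of 9354585 reads, Cd3g in E(-)T(+) was below the floor of 0.321 CPM. Set at a floor of 3 reads per library, it was at least 16.0-fold lower than in E(-)T(-), and in E(+)T(+) at least 4.62-fold higher than in E(-)T(+). These bounds rest on that floor, and the exact intervals allow smaller changes, down to log2 -3.66 and 1.70. It stayed lower in E(+)T(+) than in E(+)T(-), by -1.76 (-2.83 to -0.95).

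The zeta chain gene Cd247 gave 146, 87, 16 and 45 reads and log2 levels of 6.97, 6.34, 4.22 and 5.75. It was lower with exercise alone (-0.63, interval -1.03 to -0.24), lower with tumor alone (-2.75, -3.67 to -2.08) and higher with exercise in tumor-bearing mice (1.53, 0.73 to 2.51). In that last comparison Cd247 differed by 0.94 by library totals and by -0.57 by pan-leukocyte reads. Pou2f1, which overlaps its 3′ end on the other strand, gave 622, 472, 402 and 365 reads, a different order of libraries.

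The coreceptors did not move together. Cd4 gave 31, 67, 12 and 25 reads and log2 levels of 4.77, 5.97, 3.83 and 4.92. It was the member past the 2-fold limit upward with exercise alone, by 1.20 (0.59 to 1.89). It was also the member least lower with tumor alone, by -0.94, with an interval that ended just under 0 (-2.10 to -0.000589). With tumor, exercise came with a difference of 1.09 (0.11 to 2.28), but 0.52 by library totals and -0.98 by pan-leukocyte reads. E(+)T(+) was 111% of E(-)T(-) by normalized count but 78.5% by CPM.

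Cd8a gave 57, 26, 3 and 34 reads and log2 levels of 5.63, 4.64, 2.12 and 5.35. It was lower with exercise alone (-0.995, -1.75 to -0.33) and with tumor alone (-3.51, -6.20 to -2.26), and higher with exercise in tumor-bearing mice (3.22, 1.93 to 5.94). Its normalized count in E(+)T(+) was 81.7% of that in E(-)T(-).

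Cd8b1, the beta chain that conventional cytotoxic T cells pair with CD8 alpha, gave 45, 23, 3 and 7 reads and log2 levels of 5.30, 4.47, 2.12 and 3.21. Like Cd8a it was lower with exercise alone (-0.83, -1.65 to -0.10) and with tumor alone (-3.18, -5.87 to -1.90). In tumor-bearing mice with exercise its interval reached from -0.82 to 3.90 around a difference of 1.09, so a change was not detectable at this depth. Its level in E(+)T(+) was 21.5% of that in E(-)T(-).

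Of the kinases, Lck gave 196, 150, 14 and 83 reads and log2 levels of 7.39, 7.12, 4.04 and 6.62. It was lower with tumor alone by -3.35 (-4.34 to -2.66) and higher with exercise in tumor-bearing mice by 2.58 (1.83 to 3.59). By pan-leukocyte reads Lck differed by -2.31 and 0.47 in these comparisons. Exercise alone left it within counting error (-0.27, -0.59 to 0.04), and in E(+)T(+) it was 58.3% of its level in E(-)T(-).

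Zap70 gave 51, 54, 7 and 43 reads and log2 levels of 5.47, 5.66, 3.13 and 5.68. Both comparisons without the cancer control lay within counting error: 0.19 for exercise alone (-0.38 to 0.78) and 0.02 for tumor with exercise (-0.59 to 0.62), the latter turning to -1.16 by pan-leukocyte reads. It differed by -2.34 for tumor alone (-3.88 to -1.35) and 2.55 for exercise with tumor (1.55 to 4.11). By pan-leukocyte reads Zap70 differed by -1.35 and 0.51 in these comparisons.

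Tcf7 was the least read member, at 15, 14, 4 and 5 reads and log2 levels of 3.79, 3.80, 2.44 and 2.79. Its differences were 0.01 for exercise alone, -1.35 for tumor alone (-3.59 to 0.11), 0.35 for exercise with tumor (-1.80 to 2.75) and -1.01 for tumor with exercise (-2.96 to 0.42). All 4 intervals included 0, so no change of Tcf7 was detectable at this depth.

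The exercise effect without tumor asks how training alone moved these genes, and their sum differed by -0.20 (-0.34 to -0.06). Of the 10 genes, 1 was 2-fold or more higher (Cd4), as were 5.28% of the 15164 genes whose normalized count averaged 4 or more. Another 1 of 10 was 2-fold or more lower (Cd3e), against 4.7% of all genes. The intervals of 4 genes lay below 0 (Cd3e, Cd247, Cd8a and Cd8b1) and that of Cd4 above it, where those of 21.3% of all genes lay below and 22.5% above. The median of the members was -0.13, and that of all genes 0.

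In the tumor effect without exercise all 10 deposited differences were negative. The members' sum differed by -2.79 (-3.11 to -2.50) and their median by -2.78, against -0.034 for all genes. Of the members, 9 of 10 were 2-fold or more lower, all but Cd4, and none was higher, where 25.7% of all genes were lower and 20.6% higher. With a pseudocount of 4 Tcf7 (-0.99) lost the call, and under totals without hemoglobin Cd4 (-1.04) gained it. The intervals of 9 members lay below 0, all but that of Tcf7, against 38.5% of all genes. By pan-leukocyte reads the sum was -1.70 with 8 members 2-fold or more lower, where Tcf7 (-0.41) lost the call and Cd4 turned to 0.09, against a median of 1.04 for all genes, of which 12.7% were lower and 51.4% higher.

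The exercise effect with tumor ran the other way. The sum differed by 2.42 (2.11 to 2.74) and the median by 2.18, or 2.01 with Cd3g at its bound, against 0.009 for all genes. Of the members, 9 of 10 were 2-fold or more higher, all but Tcf7, and none was lower, where 24.3% of all genes were higher and 17.7% lower. The intervals of 8 members lay above 0, all but those of Cd8b1 and Tcf7, against 35.3% of all genes. By library totals 6 members were 2-fold or more higher, where Cd247 (0.94), Cd4 (0.52) and Cd8b1 (0.59) lost the call and Tcf7 turned to -0.16, against 16.4% of all genes higher and 35.4% lower. With a pseudocount of 4 it was 7 members, against 22.4% of all genes. This comparison and the preceding one share the E(-)T(+) library, so a low value there enters both. Scaled to pan-leukocyte reads, a choice made after seeing the data, the sum differed by 0.24, with 2 genes higher (Cd3g and Cd8a) and Tcf7 lower by the same limit. The call of Cd3g there rests on the added 1, as it had 0 reads in E(-)T(+), and no bound is given for it under this scaling. Cd3d (0.64), Lck (0.47) and Zap70 (0.51) lost the call, and Cd3e, Cd247, Cd4 and Cd8b1 turned negative (-0.24, -0.57, -0.98 and -0.72). The median of all genes under that scaling was -2.13, with 4.15% of them 2-fold or more higher and 76.8% lower.

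The tumor effect with exercise compares E(+)T(+) with E(+)T(-), and the members' sum differed by -0.17 (-0.34 to -0.006). It was -0.58 by library totals and -1.39 by pan-leukocyte reads. The latter turned Cd3d, Cd3e (-0.64), Cd8a (-0.46) and Zap70 negative, so that all 10 members were lower. The single genes ranged from -1.76 (Cd3g) to 0.71 (Cd8a). None was 2-fold or more higher and 4 of 10 were lower (Cd3g, Cd4, Cd8b1 and Tcf7), where 14.9% of all genes were higher and 13% lower. With a pseudocount of 4, Cd4 (-0.98) and Tcf7 (-0.77) lost that call. Cd3d had an interval above 0, which did not hold by library totals or pan-leukocyte reads (above), and those of 5 members lay below 0 (Cd3g, Cd247, Cd4, Cd8b1 and Lck). Over all genes 32% of intervals lay above 0 and 32.4% below. The members' median was -0.55 and that of all genes -0.003.

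**Figure D2:**
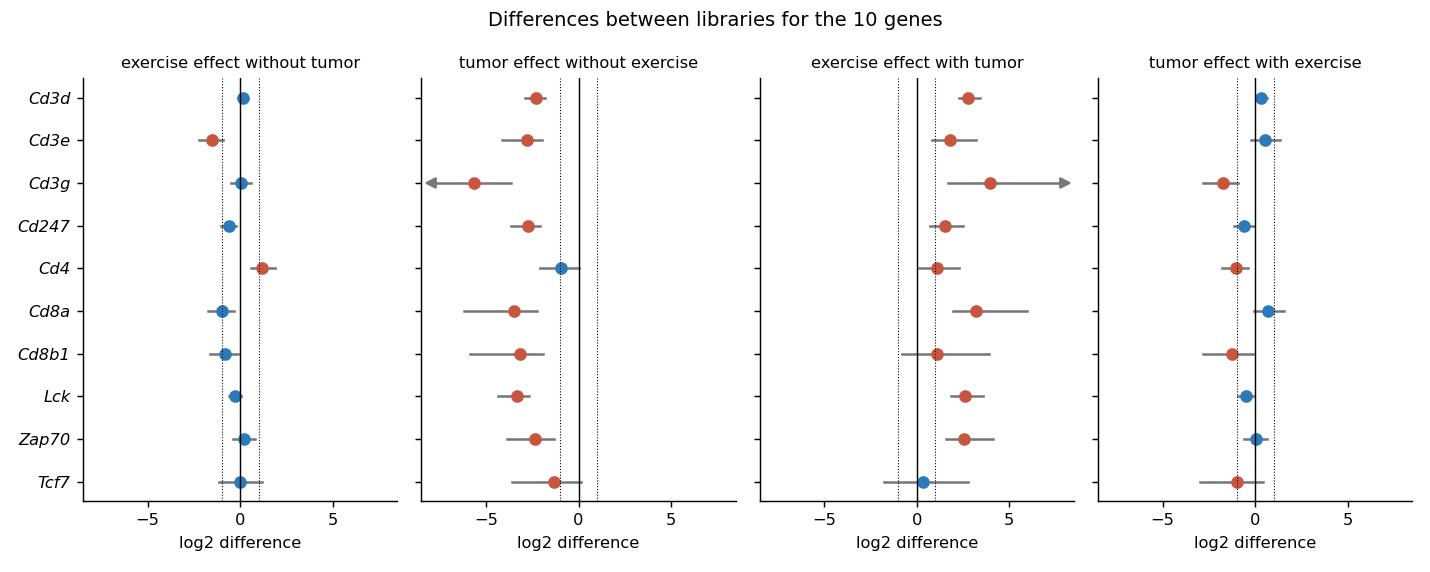
Log2 difference of each gene in the 4 comparisons (x axis), with the exact 95% interval of the read ratio as a line covering counting error only. In the tumor effect without exercise all points lie below 0, and in the exercise effect with tumor all lie above it.

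Whether exercise acted differently with and without tumor was read from the difference of the exercise effects, with a normal-approximation interval around the read ratio of the 4 counts. For the sum it was 2.62 (2.29 to 2.96), but 2.10 by library totals and 0.31 by pan-leukocyte reads, where Cd247 (-0.08), Cd8b1 (-0.02) and Tcf7 (-1.59) turned negative and Cd4 was at -2.30. Among the genes it was 4.22 for Cd8a (2.79 to 6.45), 3.34 for Cd3e (2.25 to 4.71), 2.16 for Cd247 (1.31 to 3.13), 2.85 for Lck (2.06 to 3.81) and 2.64 for Cd3d (2.09 to 3.26). For Cd3g it was 3.91, but 2.21 with a pseudocount of 4. Its 0 reads in E(-)T(+) leave it no interval, and its size depends on the added count. Of the 9 members with an interval, 7 lay above 0 and 2 included it, where 33.9% of the 14416 genes with reads in every library lay above 0. Every gene low in E(-)T(+) alone enters this contrast. For Cd4 the difference was -0.11 (-1.24 to 1.10) and for Tcf7 0.34 (-1.77 to 2.57).

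An additive limma fit over all 4 libraries (exercise and tumor as factors, 1 residual degree of freedom) takes the interaction as error. No member was called for tumor at a Benjamini-Hochberg adjusted p under 0.05, where 495 of 15164 genes (3.26%) were. Without a filter on low values limma called Cd3g (adjusted p 0.0221), as 1 of 1284 genes called among 18254. Cd3g had the lowest adjusted p for tumor, 0.0956 (coefficient -3.72), followed by Lck at 0.206 (coefficient -1.93), and these 2 of 10 members had an unadjusted p under 0.05, as did 17.8% of all genes. For exercise limma called 0 genes, with 753 (4.97%) at an unadjusted p under 0.05, among them 1 member, Cd3d, and it called 58 genes without a filter and 5 with a pseudocount of 4, with 0 members in each.

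Ratios of members within a library do not depend on how the libraries were scaled. The levels of different genes are not compared by them, only the same ratio between libraries. Reads of Cd8a and Cd8b1 over those of Cd4 gave 3.29 (2.18 to 5.09), 0.731 (0.495 to 1.07), 0.500 (0.154 to 1.44) and 1.64 (0.974 to 2.81). The interval of the normal control was clear of those of E(+)T(-) and E(-)T(+). Cd8b1 over Cd8a was 0.789 (0.522 to 1.19), 0.885 (0.482 to 1.61), 1 (0.134 to 7.47) and 0.206 (0.0770 to 0.472). In E(+)T(+) the interval of this ratio lay below those of both groups without tumor.

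The receptor chains also shifted against each other. Cd247 over the CD3 chains (Cd3d, Cd3e and Cd3g summed) was 0.392 (0.322 to 0.477), 0.277 (0.216 to 0.352), 0.372 (0.196 to 0.674) and 0.166 (0.118 to 0.228). Lck and Zap70 over the CD3 chains was 0.664 (0.563 to 0.782), 0.650 (0.542 to 0.777), 0.488 (0.275 to 0.841) and 0.465 (0.373 to 0.576). A further 3 ratios were chosen after the values were seen, and are descriptions. Cd3e over Cd3d was 0.403 (0.311 to 0.517), 0.123 (0.0802 to 0.183), 0.265 (0.112 to 0.564) and 0.142 (0.0946 to 0.206). Both exercise libraries thus lay below the normal control, while the interval of E(-)T(+) overlapped those of all other libraries. Cd3g over Cd3d was 0.281 (0.208 to 0.373) and 0.260 (0.192 to 0.347) without tumor, at most 0.115 in E(-)T(+) and 0.0575 (0.0302 to 0.100) in E(+)T(+), so that both tumor libraries were low. Lck over Zap70 was 3.84 (2.81 to 5.34), 2.78 (2.02 to 3.87), 2 (0.755 to 5.86) and 1.93 (1.32 to 2.86).

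**Figure D3:**
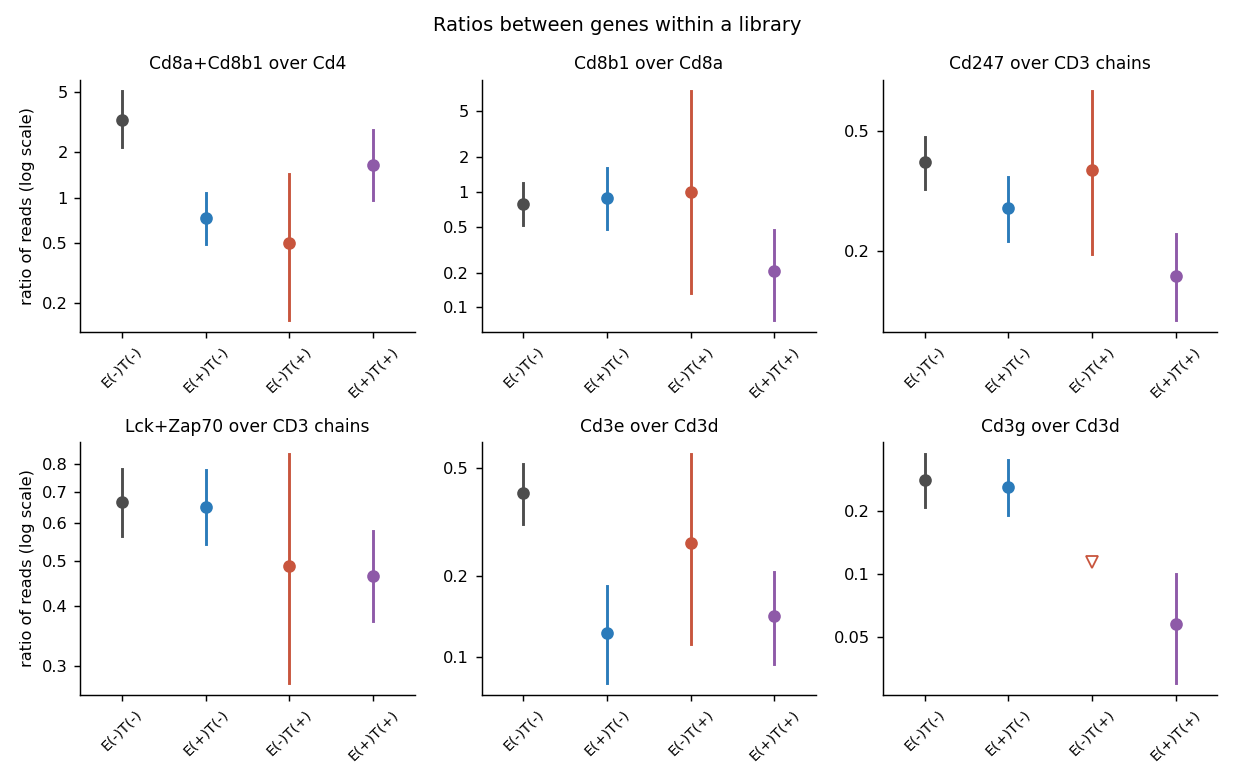
Ratios of reads between members within each library (y axis, log scale), with exact 95% intervals that cover counting error only. The open triangle is the upper bound where Cd3g had 0 reads, and Cd8b1 over Cd8a is lowest in E(+)T(+), at 0.206.

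Genes that work beside the receptor were read from lists. Of 28 proximal signaling genes (adaptors, kinases and phosphatases around the receptor) 27 passed the mean count filter, and 18 were 2-fold or more lower and 2 higher with tumor alone, with a median of -1.44, where 25.7% of all genes were lower and 20.6% higher. With exercise in tumor-bearing mice 15 were higher and 1 lower, against 24.3 and 17.7% of all genes, with a median of 1.35, or 1.27 with Themis, at 0 reads in E(-)T(+), at its bound. Among the large differences with tumor alone was that of Cd2, an adhesion receptor, with 744, 507, 39 and 259 reads (-3.85). Among genes averaging a normalized count of 50 or more, the smallest were those of Sla2, an adaptor that lowers receptor signaling, with 1459, 1400, 1197 and 1812 reads (0.08), and Vav1, an exchange factor, with 132, 127, 75 and 243 reads (-0.44). In E(-)T(+) the reads of Sla2 alone exceeded the 102 of all members, and Ptprc of this list is also among the pan-leukocyte genes. Which cells gave the reads of this list was not tested.

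Of 11 transcription factors of the T lineage, 7 were 2-fold or more lower and 2 higher with tumor alone (median -1.13), against 25.7 and 20.6% of all genes, and 3 were higher with exercise in tumor-bearing mice (median 0.60), a share close to the 24.3% of all genes. Lef1, the relative of TCF-1, gave 215, 123, 16 and 58 reads (-3.30 with tumor alone). Bcl11b, which keeps T cell identity, gave 224, 133, 27 and 18 reads, and differed by -2.64 with tumor alone and by -2.47 with tumor under exercise. Unlike the CD3 chains, Bcl11b was thus no higher in E(+)T(+) than in E(-)T(+) (-0.47). Among factors averaging 50 or more, the smallest differences were those of Runx1 (-0.33) and Ikzf1 (-1.05), which many other blood cells express. Those higher with tumor alone were Runx3 (189, 268, 569 and 609 reads, 1.95), a factor of the CD8 lineage, and Zbtb7b (168, 184, 272 and 234 reads, 1.06), a factor of the CD4 lineage. Cd8a and Cd4 gave only 3 and 12 reads in E(-)T(+). Which cells gave the reads of Runx3 and Zbtb7b was not tested.

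The 5 genes of naive T cell trafficking and survival were all 2-fold or more lower with tumor alone and all higher with exercise in tumor-bearing mice, with medians of -2.11 and 1.93, where 25.7% of all genes were lower in the first comparison and 24.3% higher in the second. Ccr7, the receptor that guides cells to lymph nodes, gave 130, 110, 6 and 78 reads. S1pr1 (-1.84) and Klf2 (-1.93), which endothelial cells also express, had the smallest differences with tumor alone.

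Markers of other cells were read beside the members, and not all followed them. The 7 natural killer (NK) cell genes that passed the filter, of 10 listed, had a median of -2.21 with tumor alone and of -0.47 with exercise in tumor-bearing mice. Their list summed to 1789, 1249, 465 and 368 reads, with the defining marker Klrb1c at 62, 65, 3 and 0. Nkg7 gave 229, 169, 29 and 68 reads, Ncr1 165, 132, 27 and 14, and Klrd1 99, 62, 7 and 16. Gzma gave 1157, 739, 362 and 245, most of the reads of the list in each library. With exercise in tumor-bearing mice 2 of the 7 genes were higher, Nkg7 (1.29) and Klrd1 (1.18, interval -0.075 to 2.81), and 5 were lower. Prf1, the perforin gene, went the other way with tumor alone, at 1, 7, 15 and 2 reads (3.30, interval 1.57 to 9.67). The member reads over the NK reads were 0.510, 0.588, 0.219 and 1.39, the highest in E(+)T(+), and these ratios rest largely on Gzma. Some T cells also express Nkg7 and Gzma, and NK cells can carry Cd247, Lck and Zap70.

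Dendritic cells can express CD4 or CD8 alpha, and Cd8b1 and the CD3 chains mark T cells more strictly. The 8 dendritic cell genes had medians of -2.75 with tumor alone and 1.80 with exercise in tumor-bearing mice, close to those of the members, and summed to 1175, 664, 150 and 503 reads. Itgax gave 573, 270, 17 and 149 reads, Clec9a 334, 204, 31 and 92 and Zbtb46 41, 58, 62 and 91. The defining dendritic marker Flt3 gave 37, 8, 16 and 83 reads, Xcr1 46, 57, 5 and 21, Siglech 46, 18, 4 and 7, Batf3 49, 30, 12 and 55, and Itgae 49, 19, 3 and 5. The part of dendritic cells in the values of Cd4 and Cd8a was not tested.

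B cell genes summed to 1269, 1077, 30 and 266 reads. Ms4a1 gave 259, 159, 0 and 14 reads, Cd79a 142, 104, 0 and 53, and Cd79b 312, 245, 11 and 66. Cr2, a complement receptor of B cells and follicular dendritic cells, gave 149, 325, 17 and 4 reads, unlike these genes higher with exercise alone (1.23) and lower with exercise in tumor-bearing mice (-1.76). Member reads over B cell reads were 0.719, 0.682, 3.40 and 1.93. The 6 pan-leukocyte genes, which most white blood cells share, had medians of -1.38 with tumor alone and 2.18 with exercise in tumor-bearing mice. Member reads over these were 0.130 (0.121 to 0.139), 0.123 (0.114 to 0.133), 0.0399 (0.0324 to 0.0486) and 0.0472 (0.0432 to 0.0516), so by this measure the tumor libraries were both low and their intervals overlapped. Neutrophil genes gave 4374, 12703, 8179 and 167116 reads, with the E(+)T(+) library far above the others. Their part in the ratio to pan-leukocyte genes was not tested.

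The remaining lists follow in brief. Innate-like T cell genes had medians of -2.22 with tumor alone and 1.25 with exercise in tumor-bearing mice, ILC2 genes 1.74 and -0.65, and macrophage genes 0.82 and -0.03. Lung epithelial genes, which took 5.85, 6.68, 1.43 and 4.45% of reads, had medians of -2.67 and 2.46, and hemoglobin genes -3.42 and 5.14. Cell division genes gave 332, 652, 7718 and 2554 reads. Thymus and lymph node were checked as sources of T cell RNA: Rag2 was at 0 reads in every library, Rag1 gave 3, 0, 0 and 0, Dntt 3, 14, 0 and 2, Ptcra 1, 5, 37 and 3, and lymph node stroma genes 0, 0, 5 and 5. Of the 5 stroma genes listed only 2 were in the data, and 0 passed the filter. The part of these shifts in tissue makeup in the members' values was not tested.

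**Figure D4:**
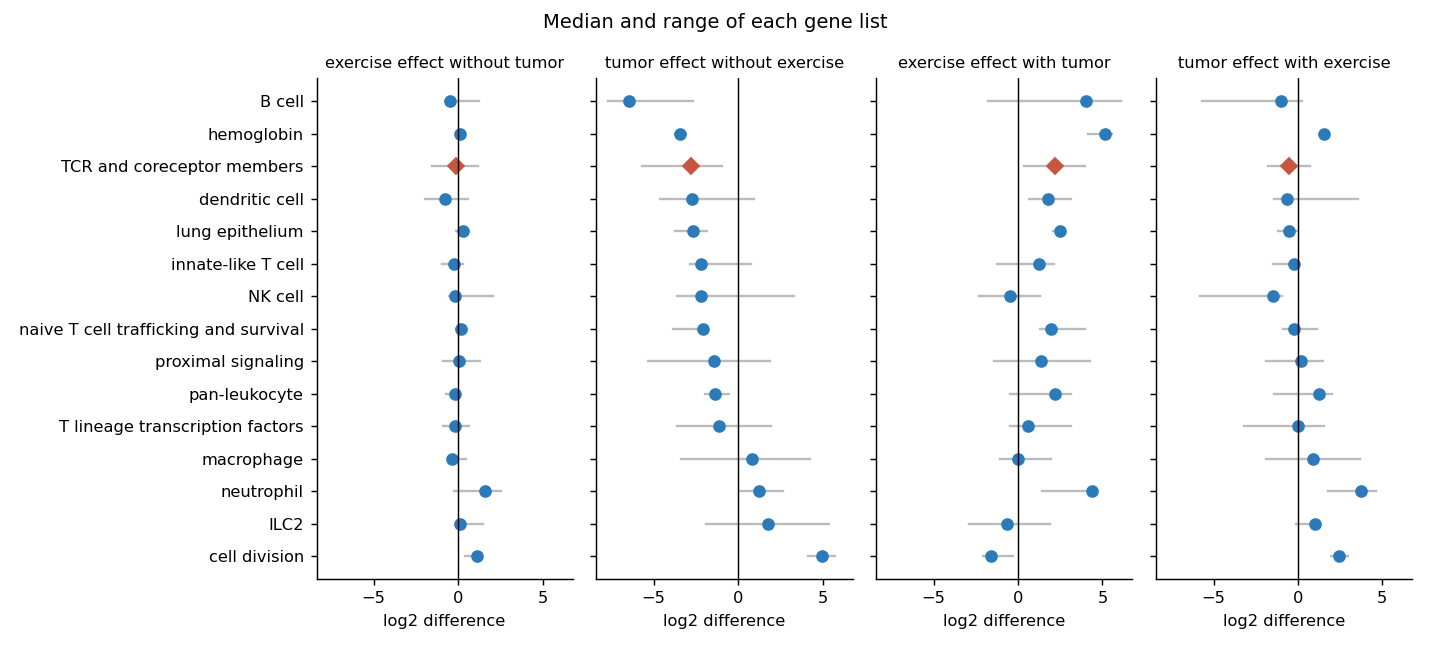
Median (point) and range (line) of the log2 differences of each gene list in the 4 comparisons, on a shared x axis, with the 10 members as a red diamond. B cell medians include genes with 0 reads and depend on the added 1, and the members' medians of -2.78 and 2.18 lie near those of dendritic cell and lung epithelial genes.

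The genes most like the members in pattern were found by the distance of log2 levels, centred over the 4 libraries, to the members' mean profile of 0.95, 0.69, -1.87 and 0.23. Over 11213 other genes whose normalized count averaged 50 or more, the nearest were Eps8l1 (distance 0.0226), Tmem246 (0.0452), Slc34a2 (0.106), Nod1 (0.110) and Arrb1 (0.117). Eps8l1 gave 383, 296, 42 and 168 reads and Slc34a2, a phosphate carrier of alveolar type II cells, 6070, 5078, 722 and 2727. The members themselves lay at distances from 0.447 (Lck) to 2.46 (Cd3g), and none was nearer than the fifth of these genes. Over 4 libraries such likeness is a description.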

How the data were processed

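Lung RNA was sequenced by the authors with a 3′ poly(A)-primed kit (QuantSeq), aligned with Bowtie2, counted with bedtools coverage and quantile-normalized in edgeR, on mm10 per the submitters' processing notes. Tool versions and use of strand are not given in the sources used here. The deposited log2 values are log2(normalized count + 1) at 3 decimals. Whole reads were recovered by inverting a negative binomial quantile adjustment (dispersion 0.372), which returned 100% of values within 0.001. It resolved all 40 member values, and 94.6% of all values, to 1 read.

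Comparisons were differences of deposited log2 values, with a limit of 2-fold and a filter of a mean normalized count of at least 4, which 15164 of 23282 rows and all 10 members passed. Folds on this scale understate changes of low genes. Intervals are exact 95% intervals of read ratios scaled by effective library size, and those for the difference of exercise effects are normal approximations from the 4 counts. A count model was planned, but the deposited unit is log2, so an additive limma fit (version 3.58.1, R 4.3.3, trend) on those values was used, after a test on simulated data. No count model of the recovered reads is given here. Other steps used Python 3.11.15, numpy 2.4.6, pandas 2.3.3, scipy 1.17.1 and matplotlib 3.10.9.

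The members and the gene lists were chosen with earlier results of these data known. In each list the genes named were the 2 with the largest and the 2 with the smallest difference with tumor alone among those averaging 50 or more, plus defining markers near 0, and other named genes were chosen after their values were seen. Some genes that this rule names are not reported here. A list of antigen receptor chain genes is not analysed here. Alternatives were other scalings, a pseudocount of 4, a limit of 1.5-fold, a filter of 50 and none, and, chosen after seeing the data, scaling to pan-leukocyte reads.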

Additional observations from a re-analysis of the deposited data

Results flagged for a closer look

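Cd3e, Cd247 and Cd8a moved in opposite directions with exercise in the 2 tumor states. For Cd3e the exercise effect was -1.53 without tumor and 1.81 with tumor, on the log2 scale. For Cd247 it was -0.63 and 1.53. For Cd8a it was -0.995 and 3.22. Under scaling to pan-leukocyte reads Cd3e (-1.39 and -0.24) and Cd247 (-0.50 and -0.57) were lower in both tumor states, while Cd8a kept opposite directions (-0.86 and 1.297). With 1 library per group these differences were not tested against a spread between mice, and the counting intervals of the difference, given above, cover reads alone.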

How the results depend on the processing

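No paired analysis was possible because each group has 1 library, so that a block on their common number would hold all 4 libraries and change nothing, and for the same reason no library could be left out. Of the values of single genes under alternatives, 176 stayed within their counting error, 20 moved further and 4 that were past the 2-fold limit turned direction. All 4 turned under scaling to pan-leukocyte reads, in the exercise effect with tumor: Cd3e -0.24, Cd247 -0.57, Cd4 -0.98 and Cd8b1 -0.72, and Tcf7, which was not past the limit, also turned negative. That scaling, chosen after seeing the data, took the median of all genes to 0.13, 1.04, -2.13 and -1.19 in the 4 comparisons, and by construction sets the change in leukocyte RNA to 0. Under it the summed members differed by -1.70 for tumor without exercise, 0.24 for exercise with tumor (2 genes higher, 1 lower, against 4.15 and 76.8% of all genes) and -1.39 for tumor with exercise (7 genes lower, against 59.7% of all genes). Of those 2 higher genes, Cd3g had 0 reads in E(-)T(+), so its call rests on the added 1. Scaling by library totals, which took the median of all genes to -0.59 for exercise with tumor and to -0.41 for tumor with exercise, gave sums of 1.82 and -0.58, and took the share of higher genes among all past the limit from 57.8 to 31.6% and from 53.5 to 28.2%. In the exercise effect without tumor, 2 genes were lower under library totals and under totals without hemoglobin (5.30% of all genes in each), and 4 at a limit of 1.5-fold (11.4%). In the tumor effect with exercise, 2 genes were lower at a pseudocount of 4 (11.5% of all genes) and 1 was higher at a limit of 1.5-fold (24.2%). A mean count of at least 50 keeps only Cd3d, Cd247 and Lck, and counts then were 0 higher and 0 lower for exercise without tumor (1.98 and 0.900% of all genes), 3 lower for tumor without exercise (21.8% of all genes), 3 higher for exercise with tumor (20.6%) and 0 lower for tumor with exercise (9.39%). The additive limma fit called 1 member for tumor, Cd3g (adjusted p 0.0221), without a filter, where 1284 genes were called, against 310 genes with median-of-ratios scaling and 885 with a pseudocount of 4, each with 0 members. Depth limits Cd3g most, at 0 reads in E(-)T(+), and then Cd8a, Cd8b1 and Tcf7, at 3 to 4.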
